A study of Mus musculus with 8 samples.

Results

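The semaphorins are guidance ligands, and the plexins and neuropilins are their receptors. The 31 mouse genes described here (20 semaphorins, 9 plexins and 2 neuropilins) were chosen by name, by taking every transcript that carries one of their symbols, out of 53392 genes in the deposited files. They were measured by sequencing of messenger RNA from the cerebral cortex at postnatal day 0 in mice of the FVB/N background. There were 4 libraries from R342X mutants, which carry a nonsense mutation in Phf6, and 4 from wild-type mice, numbered 1 to 4 in each genotype, and values listed library by library keep that order. The labels name no animal, litter, sex, zygosity or batch, so p-values measure the spread between these libraries, which may be technical. The design asks how the mutation alters cortical gene expression.

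Semaphorins of class 3 are secreted, and most of them bind a neuropilin that forms a complex with a plexin of class A. The other classes are held in the membrane and bind plexins directly. Plexins carry a GTPase-activating domain inside the cell, through which they act on Ras-family GTPases and on the cytoskeleton. In the developing cortex the system repels or attracts growing axons, orients dendrites and steers migrating neurons, and in vessels some members guide endothelial sprouts.

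The libraries held 30469745 to 39453169 estimated reads in mutants and 48841467 to 74266937 in wild type, so each wild-type library was deeper. Phf6 itself stood at 39.3 to 43.6 CPM in mutants, against 72.1 to 91.9 CPM in wild type (CPM, estimated reads scaled by TMM library size). Markers of cortical projection neurons were present in every library, with 9 of 9 listed genes measured. On the first principal component the libraries fell into a set with mutant replicates 1 to 3 and wild-type replicate 1 (set 1) and a set with mutant replicate 4 and wild-type replicates 2 to 4 (set 2). The labels name no source for these sets, and each genotype has 1 library in 1 of the sets, so values that differ between the sets are partly mixed with genotype. The sets were drawn from the same expression values that the fits test, so p-values with library set as a term are only descriptive. In bulk tissue, fewer cells of a type and less RNA per cell cannot be told apart.

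All 31 members had enough reads to be tested. Per length, in TPM summed over each gene's transcripts, the range was wide. Sema6c, a membrane-bound ligand of class 6, had the highest TPM over all its transcripts in both genotypes, with 126 ± 3.53 TPM in mutants, against 127 ± 3.70 TPM in wild type (± is SD here and for levels throughout, n = 4 each). Plxna3, a class A plexin that serves as co-receptor for class 3 ligands, came next with 101 ± 7.73 TPM in mutants, against 104 ± 7.94 TPM in wild type. In wild type Sema4c, Plxnb2, Sema4g and Plxnd1 followed at 84.8 to 88.8 TPM, closer to each other than their spread. At the low end stood Sema3b, Sema3e, Sema3d and Sema3g, at 1.43 to 2.84 TPM in mutants, against 1.09 to 2.76 TPM in wild type. Plxnb3, a class B plexin known from oligodendrocytes, was the lowest at 0.41 ± 0.19 TPM in mutants, against 0.36 ± 0.099 TPM in wild type.

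**Figure D1:**
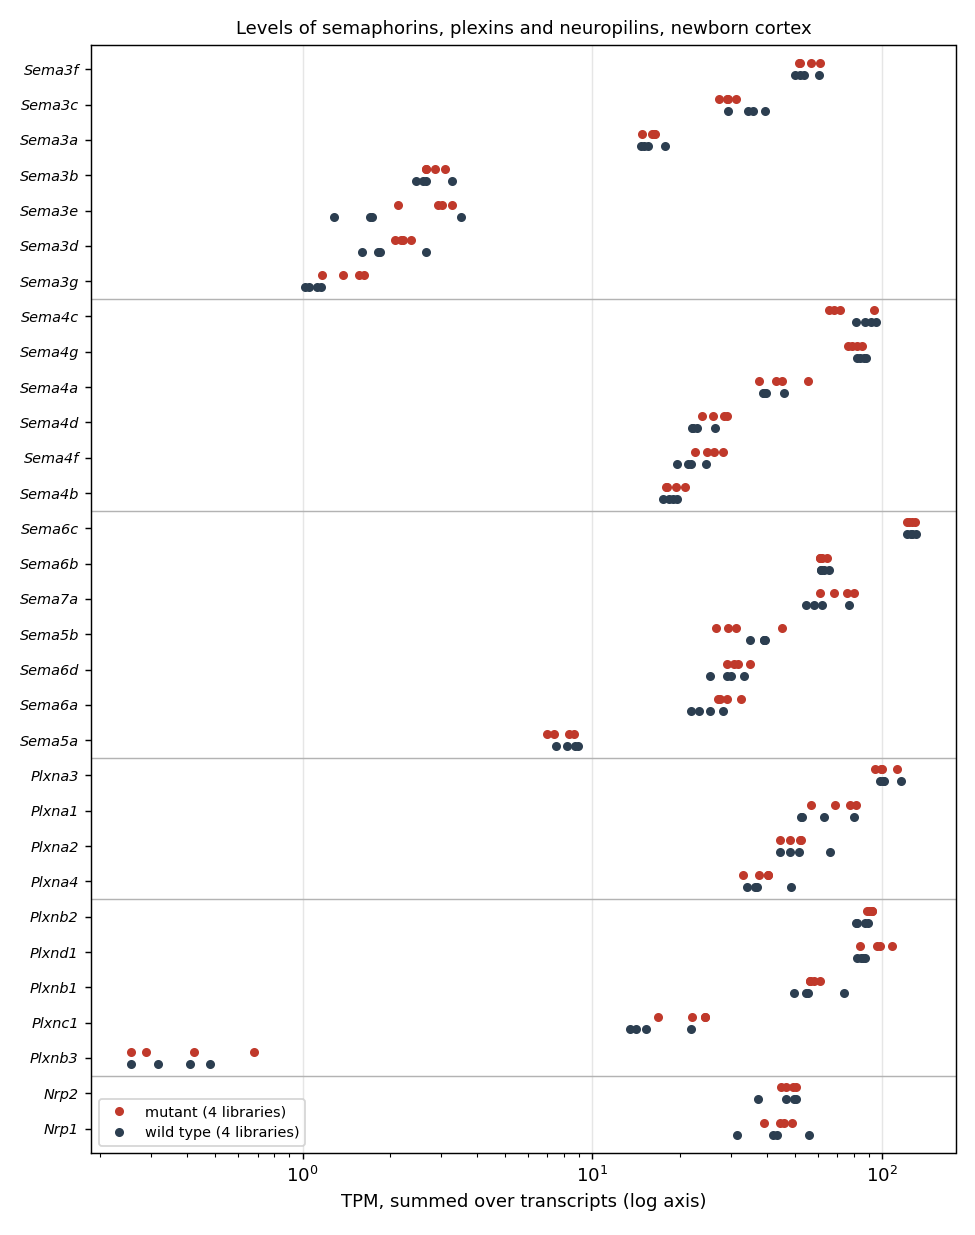
Level of each of the 31 members in each library, in TPM summed over the gene's transcripts, on a log axis, with mutant libraries (red) above wild-type libraries (dark blue) and the members grouped by role (class 3, class 4 and class 5 to 7 semaphorins, class A plexins, class B to D plexins, neuropilins). On this scale Sema6c is highest, at 126 TPM in mutants, against 127 TPM in wild type, Plxnb3 lowest, and the genotypes lie close together for nearly all members.

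Summed by role, ligands of classes 5 to 7 (7 members) held the most TPM and the neuropilins (2 members) the least in both genotypes. The order of these sums depends on how many members each role holds. Class 3 ligands totalled 109.8 ± 6.74 TPM in mutants, against 113 ± 10.8 TPM in wild type, although Sema3f and Sema3c alone made up most of this. Class 4 ligands totalled 272 ± 13.4 TPM in mutants, against 279 ± 4.63 TPM in wild type. Ligands of classes 5 to 7 totalled 361 ± 14.4 TPM in mutants, against 353 ± 16.3 TPM in wild type. Class A plexins totalled 260 ± 22.5 TPM in mutants, against 258 ± 35.6 TPM in wild type, and the neuropilins 92.3 ± 6.42 TPM in mutants, against 89.2 ± 15.2 TPM in wild type. Plexins of classes B to D totalled 268 ± 9.62 TPM in mutants, against 245 ± 15.3 TPM in wild type. These sums were not tested, and they count transcripts that are not coding, such as those that retain an intron. For Plxnd1 the retained-intron transcripts held 41.9% of TPM in mutants, against 37.0% in wild type.

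No member passed the test between genotypes (0 of 31; edgeR quasi-likelihood test with p adjusted after Benjamini-Hochberg, called under 0.05 over 20097 genes), where 0.0199% of all genes tested were called. At an unadjusted p under 0.05 stood 8 of the 31 members (25.8%), against 13.7% of all genes tested. They were Sema3g, Sema4f, Sema6a and Plxnc1, with values above 0, and Sema3c, Sema4c, Sema4g and Sema5a, with values below 0. The log2 fold change (mutant over wild type) was above 0 for 13 members and below 0 for 18, with a median of -0.02, beside 0.001 over all genes. It was within 0.2 of 0 for 25 members, and standard errors ran from 0.04 to 0.27 with a median of 0.07. CPM of the genotypes did not overlap for 3 members (9.68%), Sema3c, Sema6c and Plxna3, each lower in mutants, against 6.15% of all genes (3.2% for lower in mutants alone). Within both library sets the mutant libraries averaged lower for 14 members and higher for 6, and for the other 11 the sets did not share a direction. Each set holds only 1 library of 1 of the genotypes, and some of these differences were near 0 (Nrp2, -0.01 and -0.04). The share over all genes was not computed for this count.

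**Figure D2:**
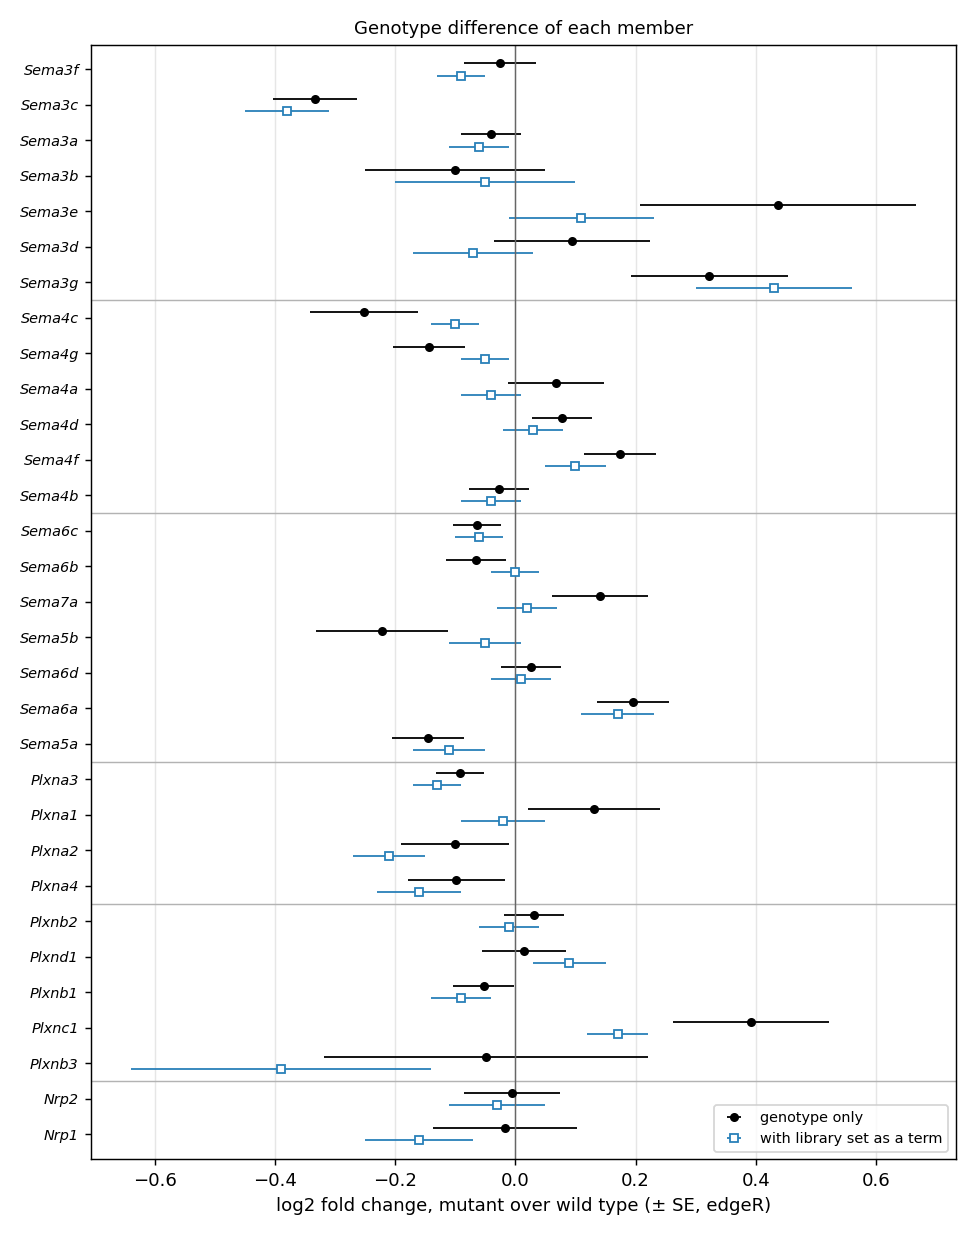
Log2 fold change of each member, mutant over wild type, with its standard error from edgeR. Filled circles come from the fit on genotype alone and open squares from the fit with library set added as a term. Sema3c lies at -0.33 and -0.38 in these fits, while Plxnc1 lies at 0.39 and 0.17 and Sema3e at 0.44 and 0.11.

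Among the secreted class 3 ligands, Sema3c stood apart by its p. Sema3c (ENSMUSG00000028780; chromosome 5, 17574281 to 17730268, plus strand, GRCm38) attracts cortical and callosal axons through Nrp1. It stood at 81.2, 74.2, 77.2 and 75.01 CPM across the mutants, against 105, 103, 95.7 and 84.2 CPM across wild type. Every mutant library lay below every wild-type library, and mutants held 79.3% of the wild-type mean (76.9 ± 3.12 CPM in mutants, 97.0 ± 9.39 CPM in wild type). The log2 fold change was -0.33 ± 0.07 (SE; edgeR adjusted p = 0.159, smallest of the 31). With library set added as a term it fell by 0.38 on the log2 scale (SE 0.07; edgeR adjusted p = 0.0305), in a fit that called 0.602% of all genes and no other member. That p is only descriptive, since the sets came from the values tested. Mutants differed from wild type by -0.43 (log2) within set 1 and by -0.33 within set 2. DESeq2's Wald test also called it, with an adjusted p of 0.00398, where 2.02% of all genes were called. In the authors' deposited table Sema3c stands at -0.32 (log2) with an adjusted p of 0.000255, in a table where 2.78% of genes with an adjusted p are under 0.05. On the TPM scale the genotypes overlapped, since mutant replicate 1 had 31.3 TPM and wild-type replicate 4 had 29.5 TPM.

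Of the cell type marker lists read, the summed CPM of 4 did not overlap between genotypes, 2 lower and 2 higher in mutants. Of all single genes tested, 6.15% did not overlap, and no such share was computed for sums of genes. These 4 are given because they separated, and the sums of all other lists overlapped. The others were interneurons, radial glia, oligodendrocyte lineage, endothelial cells, mural cells, meningeal fibroblasts, Cajal-Retzius cells, choroid plexus, striatum, thalamus and blood. Log2 fold changes were above 0 for 1 and below 0 for 3 intermediate progenitor genes, and for 2 and 7 projection neuron genes. They were above 0 for 5 and below 0 for 1 of the astrocyte genes, and for 7 and 0 of the microglia genes. Intermediate progenitor genes (4 of 5 tested, Neurog1 too low to test) summed to 68.4 to 95.6 CPM in mutants, against 103 to 109 CPM in wild type. Cortical projection neuron genes (9 of 9) summed to 1723 to 1821 CPM in mutants, against 1917 to 1984.5 CPM in wild type. Astrocyte genes (6 of 6) summed to 635 to 741 CPM in mutants, against 513 to 614 CPM in wild type. Microglia genes (7 of 7) summed to 81.1 to 91.2 CPM in mutants, against 72.5 to 80.4 CPM in wild type. The lowest marker of these lists was Neurog2 for intermediate progenitors (mean 6.05 CPM), Emx1 for projection neurons (27.1 CPM), Aqp4 for astrocytes (20.3 CPM) and Tmem119 for microglia (3.79 CPM). Their part in the Sema3c difference was not tested.

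The other class 3 ligands did not pass the test. Sema3f, which repels axons through Nrp2, had the highest TPM of the class at 55.3 ± 4.48 TPM in mutants, against 54.1 ± 4.50 TPM in wild type. In CPM it had 58.3, 57.0, 55.4 and 52.9 in mutants and 61.9, 54.2, 55.1 and 56.3 in wild type, so the genotypes overlapped (log2 fold change -0.02 ± 0.06; edgeR adjusted p = 0.850; -0.09 ± 0.04 with library set added as a term). Sema3a, the classical repellent of cortical axons, had 46.7, 47.4, 46.0 and 44.7 CPM across the mutants, against 47.4, 48.0, 44.8 and 49.9 CPM across wild type, so the genotypes overlapped (log2 fold change -0.04 ± 0.05). Sema3g, known from endothelial cells, had 3.31, 3.88, 2.92 and 3.95 CPM in mutants, against 2.54, 3.03, 2.92 and 2.72 CPM in wild type. Its log2 fold change was 0.32 ± 0.13 (edgeR adjusted p = 0.325), and mutant replicate 3 lay inside the wild-type range. With library set added as a term Sema3g stood at 0.43 ± 0.13 (edgeR adjusted p = 0.152), and at 0.40 within set 1 and 0.45 within set 2.

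Sema3e, which binds Plxnd1 without a neuropilin, followed the library sets. It had 10.2, 11.3, 10.9 and 7.82 CPM across the mutants, against 11.6, 6.74, 6.35 and 5.11 CPM across wild type. Wild-type replicate 1 was the highest of all 8 libraries. Sema3e differed by 0.44 ± 0.23 (log2) on genotype alone, the largest of the family, and 0.11 ± 0.12 with library set added as a term (SE; edgeR adjusted p = 0.413 and 0.758). Within the sets the directions were opposite, at -0.11 (log2) in set 1 and 0.38 in set 2. Sema3b and Sema3d had values of -0.10 ± 0.15 and 0.09 ± 0.13 on genotype alone and -0.05 ± 0.15 and -0.07 ± 0.10 with the set term, with CPM means under 10 in both genotypes.

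The class 4 ligands span the membrane and signal mostly through plexins of class B. Sema4c, a ligand of Plxnb2, had 99.5, 102.5, 99.9 and 129 CPM across the mutants, against 111, 136, 133 and 133 CPM across wild type. The 4 libraries of set 1 were the 4 lowest, so mutant replicate 4 sat among the wild-type libraries. The log2 fold change was -0.25 ± 0.09 (SE; edgeR adjusted p = 0.305), and -0.10 ± 0.04 with library set added as a term. Without mutant replicate 4 it was -0.35 (edgeR adjusted p = 0.0343), in a fit that called 3.37% of all genes. Sema4g, also a ligand of Plxnb2, averaged 197 ± 12.1 CPM in mutants, against 218 ± 15.3 CPM in wild type (log2 fold change -0.14 ± 0.06, and -0.05 ± 0.04 with the set term). Sema4f had 54.6, 58.5, 53.0 and 49.4 CPM in mutants, against 50.96, 48.2, 47.7 and 44.1 CPM in wild type, and only mutant replicate 4 lay within the wild-type range (log2 fold change 0.17 ± 0.06; edgeR adjusted p = 0.305; 0.10 ± 0.05 with the set term). The remaining class 4 members, Sema4a, Sema4b and the Plxnb1 ligand Sema4d, had values from -0.03 to 0.08 on genotype alone and from -0.04 to 0.03 with the set term.

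In classes 5 to 7, Sema6a had the smallest p. Sema6a, a transmembrane ligand of Plxna2 and Plxna4, had 78.4, 93.6, 84.5 and 85.6 CPM across the mutants, against 78.7, 73.5, 76.3 and 70.1 CPM across wild type. Mutant replicates 2 to 4 lay above all wild-type libraries, and mutant replicate 1 lay just under wild-type replicate 1. The log2 fold change was 0.20 ± 0.06 (SE; edgeR adjusted p = 0.251), and 0.12 within set 1 and 0.22 within set 2. Oligodendrocyte lineage markers (7 of 7 tested, lowest Sox10 at a mean of 11.7 CPM) summed to 269.6 to 295 CPM in mutants, against 236 to 283 CPM in wild type. Their part in the values of Sema6a and Plxnb3 was not tested.

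Sema5a, which also carries thrombospondin repeats, had 42.3, 44.7, 39.5 and 47.2 CPM in mutants, against 48.7, 50.9, 47.6 and 44.8 CPM in wild type, with mutant replicate 4 within the wild-type range (log2 fold change -0.14 ± 0.06; edgeR adjusted p = 0.364). Sema6c, the member with the highest TPM over all transcripts, had 142, 147, 147 and 148 CPM in mutants, against 152, 149, 154 and 155 CPM in wild type. These ranges did not overlap, but the difference was small (log2 fold change -0.06 ± 0.04; edgeR adjusted p = 0.457). Sema7a, a GPI-anchored ligand that acts through integrin beta 1 and Plxnc1, averaged 112 ± 10.2 CPM in mutants, against 101 ± 10.3 CPM in wild type (log2 fold change 0.14 ± 0.08, and 0.02 ± 0.05 with the set term). Sema5b, Sema6b and Sema6d, the last a ligand of Plxna1, had values of -0.22 ± 0.11, -0.07 ± 0.05 and 0.03 ± 0.05. With the set term Sema5b stood at -0.05 ± 0.06, Sema6b within 0.01 of 0 and Sema6d at 0.01 ± 0.05.

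**Figure D3:**
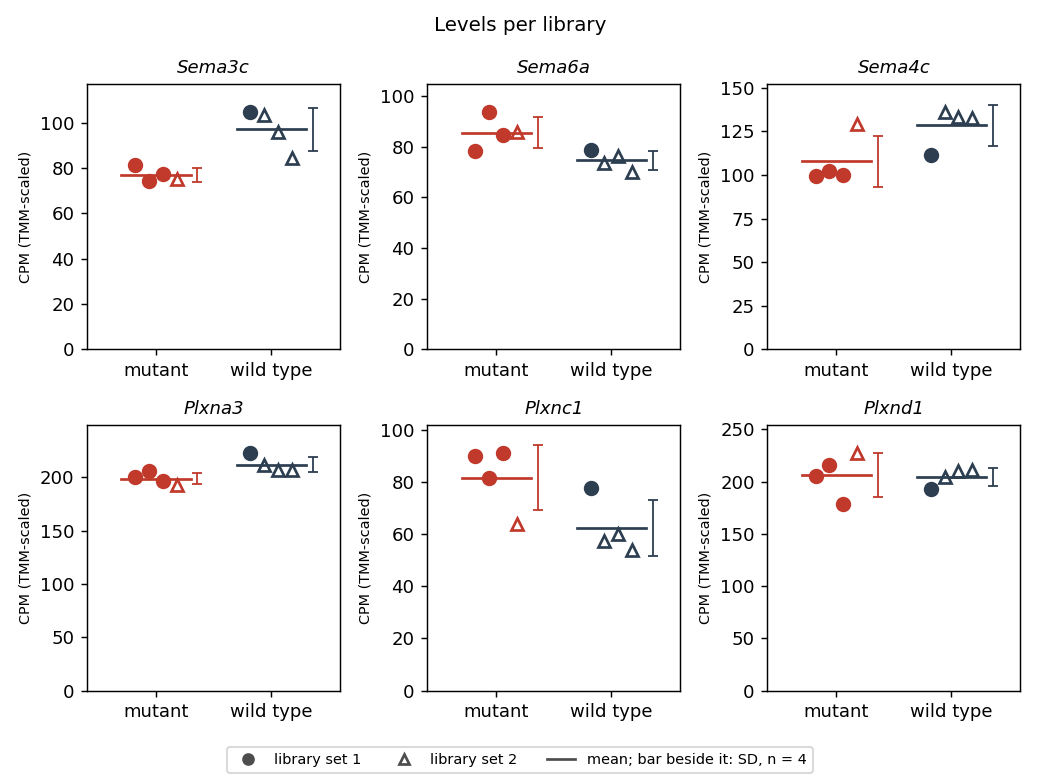
CPM per library of 6 members, with mutant libraries in red on the left and wild-type libraries in dark blue on the right of each panel. Filled circles are library set 1 and open triangles library set 2, lines are means and the bars beside them SD (n = 4). Sema3c and Plxna3 do not overlap between genotypes, Sema4c and Plxnc1 separate by library set, and Plxnd1 averages 207 CPM in mutants, against 204 CPM in wild type.

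None of the class A plexins, the signalling partners of neuropilins, passed the test. Plxna3 (ENSMUSG00000031398), which lies on chromosome X as Phf6 does, from 74329066 to 74344689, had 200.4, 206, 196 and 193 CPM across the mutants, against 222.5, 211, 207 and 207 CPM across wild type. No mutant library reached the lowest wild-type library, and the nearest pair was mutant replicate 2 and wild-type replicate 4. The log2 fold change was -0.09 ± 0.04 (SE; edgeR adjusted p = 0.366), and -0.13 ± 0.04 with library set added as a term (adjusted p = 0.129). Plxna1 had 322, 348, 303 and 274 CPM in mutants, against 341.6, 262, 294 and 242 CPM in wild type (log2 fold change 0.13 ± 0.11; edgeR adjusted p = 0.571), and stood at -0.02 ± 0.07 with library set added as a term. Plxna2 and Plxna4, which bind Sema6a as well as serving class 3 ligands, had values of -0.10 ± 0.09 and -0.10 ± 0.08 on genotype alone and -0.21 ± 0.06 and -0.16 ± 0.07 with the set term, and both were lower within set 1 (-0.34 and -0.35) than within set 2 (-0.07 and 0.02). Antisense genes on the opposite strand overlap Plxna1, Plxna4, Plxnb1, Nrp2, Sema3e and Sema5a. Opposite-strand genes of other types overlap Sema3a, Sema3d, Sema4c, Sema4d, Sema5b and Sema6d. The use of strand in the counting is not given in the sources used here, so the reads of these members are less certain. Genes on the same strand overlap Plxna2, Plxnb2, Plxnc1, Nrp1, Nrp2, Sema3a, Sema3d, Sema3e, Sema4a and Sema4b, where strand could not separate the reads.

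Among the other plexins, Plxnc1, the receptor of Sema7a, had 89.8, 81.4, 90.9 and 64.0 CPM across the mutants, against 77.7, 57.3, 59.9 and 53.9 CPM across wild type. Its 4 highest libraries were those of set 1. It differed by 0.39 ± 0.13 (log2) on genotype alone and 0.17 ± 0.05 with library set added as a term (SE; edgeR adjusted p = 0.271 and 0.169), and 0.17 within each of the sets. Without mutant replicate 4 it was 0.49 (edgeR adjusted p = 0.0458), in the fit that called 3.37% of all genes. Plxnb1, the receptor of Sema4d, had 164, 177, 167 and 172 CPM in mutants, against 191, 174, 174 and 166 CPM in wild type, and wild-type replicate 1 alone lay above the mutants (log2 fold change -0.05 ± 0.05; edgeR adjusted p = 0.633; -0.09 ± 0.05 with the set term). Plxnb2, which acts in neural progenitors and their daughters, had 208, 207, 216 and 209.5 CPM in mutants, against 226, 197, 207 and 193 CPM in wild type, so the mutants lay inside the wild-type range (log2 fold change 0.03 ± 0.05; edgeR adjusted p = 0.798). Plxnb3, also on chromosome X, had 0.708 to 1.58 CPM in mutants, against 0.815 to 1.53 CPM in wild type, and its log2 fold change of -0.05 ± 0.27 carried the largest standard error of the family (-0.39 ± 0.25 with the set term).

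The value of Plxnd1 depended on how its transcripts were added up. Plxnd1 (chromosome 6, 115954811 to 115995005, minus strand) is the receptor of Sema3e and guides vessels and descending axons. It was outside the rule for named genes and is given because the authors' deposited table calls it, with a log2 fold change of 0.22 and an adjusted p of 0.00200. Summed estimated reads gave 205, 216, 178 and 227 CPM across the mutants, against 193, 204, 210.3 and 211 CPM across wild type, with overlap (log2 fold change 0.01 ± 0.07; edgeR adjusted p = 0.934; 0.09 ± 0.06 with the set term). Summed TPM gave 96.5 ± 10.02 in mutants and 84.8 ± 2.47 in wild type. Offsets for average transcript length moved the log2 fold change to 0.13 ± 0.08 (edgeR adjusted p = 0.486). Counts of protein-coding transcripts only gave -0.01 ± 0.08 (edgeR adjusted p = 0.974).

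Reads and TPM weigh Plxnd1's transcripts differently. Transcripts of the retained-intron type, of 417 to 542 bases, held 37.0% of its TPM in wild type but 2.44% of its reads. The retained-intron transcript Plxnd1-204, of 442 bases, had 27.7, 27.1, 21.5 and 34.7 TPM across the mutants, against 21.7, 23.3, 19.5 and 18.7 TPM across wild type, on 110 to 207 reads per library. The full-length coding transcript Plxnd1-201, of 6907 bases, had 55.9 ± 6.12 TPM in mutants, against 53.2 ± 0.64 TPM in wild type. Endothelial markers (7 of 7 tested, lowest Emcn at a mean of 3.55 CPM) summed to 203 to 266 CPM in mutants, against 181 to 228 CPM in wild type, and their part in the values of Plxnd1 and Sema3g was not tested.

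Retained-intron transcripts weighed on the TPM of other members as well. They held 58.7% of wild-type TPM for Plxna3, 53.5% for Sema5b and 31.4% for Plxnb1, against 23.5%, 16.4% and 2.68% of reads. For Sema6b, Sema3g, Sema7a, Sema4g and Sema3d no retained-intron transcript carried TPM in wild type. TPM ranks of the members therefore rest in part on transcripts that are not coding, and coding transcripts alone gave Plxna3 39.0 ± 2.99 TPM in mutants, against 40.2 ± 4.99 TPM in wild type. On coding transcripts alone Sema6c had 59.5 ± 2.27 TPM in mutants, against 61.1 ± 1.57 TPM in wild type, and was no longer the highest. Sema7a was then highest in mutants at 64.5 ± 7.66 TPM, and Sema4c in wild type at 64.5 ± 3.92 TPM, with several members within their spread.

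The neuropilins are co-receptors without a signalling domain of their own. Nrp1, the binding partner of Sema3a and Sema3c and a receptor for VEGF, had 86.1, 90.6, 86.4 and 76.6 CPM across the mutants, against 105, 89.0, 84.4 and 65.8 CPM across wild type. The wild-type libraries spread more widely than the mutants and enclosed them (log2 fold change -0.02 ± 0.12; edgeR adjusted p = 0.955; -0.16 ± 0.09 with the set term). Nrp2, the partner of Sema3f, had 163, 175, 179 and 164 CPM in mutants, against 173, 177, 189 and 145 CPM in wild type, with 170.4 ± 8.18 CPM in mutants, against 171 ± 18.8 CPM in wild type (edgeR adjusted p = 0.979).

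Nrp2 (chromosome 1, 62703285 to 62818695, plus strand) was measured as 6 coding transcripts that differ in what follows an exon ending at 62786301. Their bases at this branch are shown because the forms part there. The lines give the last 20 bases of the shared stem, the insert of 15 bases in capitals where the transcript has it, and the first 25 bases of the next exon, from the GENCODE M21 transcripts of GRCm38.
Nrp2-202: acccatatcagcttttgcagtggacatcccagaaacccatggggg
Nrp2-206: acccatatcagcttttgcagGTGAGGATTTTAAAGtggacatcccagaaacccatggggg
Nrp2-204: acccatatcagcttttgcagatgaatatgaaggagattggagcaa
Nrp2-203: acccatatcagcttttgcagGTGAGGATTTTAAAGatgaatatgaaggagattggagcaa
Nrp2-205: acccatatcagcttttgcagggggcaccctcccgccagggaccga
Nrp2-201: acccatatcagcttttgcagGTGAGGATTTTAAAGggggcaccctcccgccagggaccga

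The insert occupies chr1:62786302-62786316, directly after the shared exon. Nrp2-202 and Nrp2-206 go on with an exon of 51 bases (62812534 to 62812584) and then the last exon, Nrp2-204 and Nrp2-203 go straight to the last exon at 62815333, and Nrp2-205 and Nrp2-201 use an alternative last exon at 62795709. As background, forms with the first of these last exons are known as Nrp2a and those with the alternative one as Nrp2b, and they differ in the membrane-spanning region and cytoplasmic tail.

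All 3 routes were used in every library. The route through the 51-base exon carried 47.4% ± 3.78 of Nrp2 TPM in mutants, against 46.5% ± 1.43 in wild type. The direct route to the last exon carried 31.2% ± 3.28 in mutants and 33.2% ± 1.92 in wild type. The alternative last exon carried 19.7%, 22.7%, 21.5% and 21.4% in mutant replicates 1 to 4 and 19.99%, 21.3%, 19.1% and 20.1% in wild-type replicates 1 to 4, so the genotypes overlapped. Transcripts with the insert held 13.4%, 11.5%, 11.1% and 10.3% of Nrp2 TPM in mutants, against 5.97%, 12.9%, 14.4% and 10.6% in wild type. Wild-type replicate 1 was the lowest, and the other 7 libraries lay between 10.3% and 14.4%. These shares were chosen for description after their values were seen and were not tested, and the error of read assignment between forms that differ by so few bases is unknown.

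**Figure D4:**
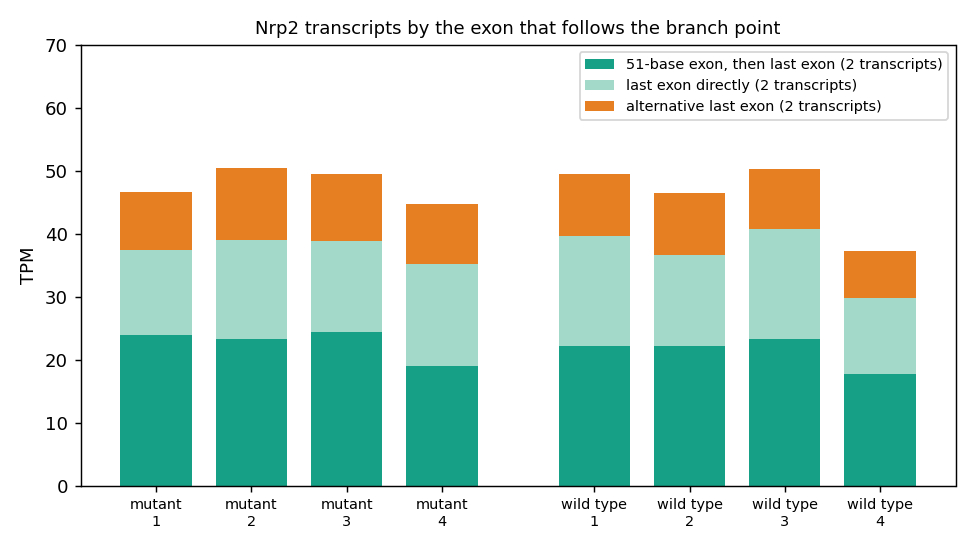
TPM of Nrp2 in each library, with 4 mutant libraries on the left and 4 wild-type libraries on the right, stacked by the exon that follows the branch point. The order of the 3 routes is the same in all 8 libraries, with the 51-base exon at 17.8 to 24.4 TPM and the alternative last exon at 7.48 to 11.4 TPM.

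At the level of single transcripts, none of the 138 tested transcripts of the members (of 221 annotated, 100 of them coding) passed the test (edgeR, smallest adjusted p = 0.671), where 0.0144% of all 55749 transcripts were called. At an unadjusted p under 0.05 stood 17 of them (12.3%), against 7.37% of all transcripts, 6 with values above 0 and 11 below. The median log2 fold change of the tested member transcripts was -0.04, beside -0.008 over all transcripts. The smallest p below 0 was that of Sema4b-202, a retained-intron transcript, with 0.56 ± 0.17 TPM in mutants, against 1.03 ± 0.17 TPM in wild type (log2 fold change -0.93 ± 0.26) on 19.1 to 128 reads per library. The smallest above 0 was that of the coding transcript Plxnc1-201, with 21.5 ± 3.53 TPM in mutants, against 15.7 ± 3.50 TPM in wild type (0.42 ± 0.15). Sema3c-201, the coding transcript that held 82.0% of Sema3c TPM in mutants, against 86.9% in wild type, had 25.9, 23.3, 22.7 and 24.0 TPM across the mutants, against 37.5, 30.8, 30.6 and 22.8 TPM across wild type. Its log2 fold change was -0.38 ± 0.11 (SE), and only wild-type replicate 4 lay among the mutants.

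Genes that work with the family were read from the same fit. Of 45 listed co-receptors and intracellular partners, 44 were tested, and 0 passed over all genes (edgeR, smallest adjusted p = 0.179), beside the 0.0199% of all genes called. Values were above 0 for 23 and below 0 for 21, with a median of 0.01. At an unadjusted p under 0.05 stood 9 of them (20.5%), against 13.7% of all genes. The 3 with the smallest p above 0, given as log2 fold changes, were Rras, a Ras-family GTPase on which plexins act (0.34 ± 0.10), the receptor kinase Erbb2, which couples to class B plexins (0.26 ± 0.10), and Rnd1, a GTPase that binds plexins (0.21 ± 0.08). The 3 below 0 were Cntn2, an adhesion molecule of axons (-0.43 ± 0.10), Ptk2, the focal adhesion kinase (-0.13 ± 0.04), and Mical1, an actin-oxidising enzyme that binds class A plexins (-0.15 ± 0.05). With the set term Rnd1 stood at 0.09 ± 0.05 (edgeR adjusted p = 0.538) and Mical1 at -0.09 ± 0.04, while Rras, Erbb2 and Ptk2 stood at 0.31 ± 0.11, 0.19 ± 0.10 and -0.11 ± 0.04.

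Cntn2 had 464, 492, 454 and 623 CPM across the mutants, against 624, 737, 698 and 683 CPM across wild type, so every mutant library lay below every wild-type library, with mutant replicate 4 within 1 CPM of wild-type replicate 1. Such a gap was seen in 6.15% of all genes, in either direction. With library set added as a term the log2 fold change of Cntn2 was -0.29 (SE 0.05; edgeR adjusted p = 0.0305), smaller than the -0.43 on genotype alone. That fit called 0.602% of all genes. DESeq2's Wald test gave an adjusted p of 0.00763, where 2.02% of all genes were called. Mutants differed from wild type by -0.41 (log2) within set 1 and by -0.18 within set 2. The collapsin response mediators Dpysl2 and Crmp1, which relay class 3 signals to microtubules, had values of 0.20 ± 0.10 and -0.04 ± 0.04 on genotype alone and 0.04 ± 0.06 and -0.01 ± 0.03 with the set term.

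Of the 31 members, 2 are under an adjusted p of 0.05 in the authors' deposited table, Sema3c and Plxnd1. The next is Plxna2, with an adjusted p of 0.126 in the authors' deposited table. The log2 fold changes in the authors' deposited table are within 0.05 of 0 for 23 members and have a median size of 0.00575 over all genes. How they were estimated is not given in the sources used here. Sema3g stands there at 0.04 with an error of 0.07, and Plxnc1 at 0.10 with an error of 0.08. Their unadjusted p-values in the authors' comparison are 0.0118 and 0.0143, smaller than those ratios of fold change to error would give. Sizes in the authors' deposited table are therefore not on the same scale as the edgeR values, and small ones there do not show an absence of change.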

How the data were processed

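The submitters' processing notes name Salmon 0.12.0, DESeq2 and the GRCm38 build. Each library's deposited file holds estimated counts and TPM for every transcript, per the file headers, and effective lengths. A further table holds the authors' comparison: a mean normalized signal, a log2 fold change, its error (treated as a score), a p-value and its adjusted form. Its model is not given in the sources used here.

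Of 136202 transcripts, 134907 matched the GENCODE M21 annotation in name and version, and coordinates come from it. Gene counts are sums of estimated counts, rounded. edgeR 4.0.16 in R 4.3.3 (TMM, default filter on low counts, quasi-likelihood F test on genotype alone, two-sided) was run on all genes and on all transcripts, after the fit was tested on simulated data. Standard errors are the fold divided by the root of F. Calls are Benjamini-Hochberg adjusted p-values under 0.05. TPM was summed per gene with no test. Library sets are the 2 sides of 0 on principal component 1 of log2 CPM with a prior count of 2. Alternatives used DESeq2 1.42.0, limma 3.58.1, other filters, covariates and transcript sums, and left out each library.

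The members, lists and tests were chosen with earlier results of these data known. Members named with full values are, per role group, those with the smallest p in each direction and the highest wild-type TPM, and any called with the library set as a term; others are named as examples, after their values were seen. Depth is given with the results, and expected counts carry assignment error that is not modelled.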

Additional observations from a re-analysis of the deposited data

Results flagged for a closer look

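Over 62 groups of 4 libraries (31 members in each genotype), 3 held a library far from the other 3 in CPM by Dixon's ratio, where chance flags about 1 group in 20. For Sema4c, mutant replicate 4 stood at 129 CPM, with the nearest mutant at 102 CPM (ratio 0.901), and wild-type replicate 1 stood at 111 CPM, with the nearest wild-type library at 133 CPM (ratio 0.873). Each of these is the 1 library of its genotype in its library set. For Sema6c, mutant replicate 1 stood at 142 CPM, with the nearest mutant at 147 CPM (ratio 0.945).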

How the results depend on the processing

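Results were recomputed under 17 alternatives (15 for transcripts). The stricter filter tested 28 of 31 members, 39 of 44 signalling partners and 101 of 138 transcripts, and gave no value for Sema3g and Rras. The count of called members, 0 on genotype alone, was 1 with DESeq2's Wald test and 1 with the library set as a term (Sema3c each time), and between 0 and 2 with 1 library left out, the 2 being Sema4c and Plxnc1 without mutant replicate 4. The count of called signalling partners, also 0, was 1 with DESeq2's Wald test and 1 with the library set as a term (Cntn2 each time), and between 0 and 2 with 1 library left out (Cntn2 and Rnd1 without mutant replicate 4). The count of called member transcripts was 0 under all 15. Over all genes, calls numbered 4 on genotype alone, 406 with DESeq2, 121 with the library set, 13 with no filter, 20 with the replicate block and 3 to 699 with 1 library left out, and over all transcripts 8, 366 with DESeq2, 0 with limma-voom, 0 with the replicate block, 1 with the library set and 0 to 12 with 1 library left out.

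Of 385 recomputed log2 fold changes of 23 named genes and transcripts, 363 kept their direction and their side of the threshold, 8 passed the threshold and 14 changed sign. Sema3c ran from -0.42 to -0.29, with adjusted p from 0.00398 to 0.532 and 2 calls. With the library set as a term Plxna1 stood at -0.02 and Plxnb2 at -0.01. Nrp1 was 0.01 with limma-voom and -0.13 to 0.10 with 1 library left out, and Sema3f was -0.05 to 0.02 with 1 library left out. Nrp2, at -0.005 on genotype alone, was 0.01 with length offsets, above 0 but 0.0 when rounded with the replicate block, and -0.08 to 0.05 with 1 library left out. The cause was not tested. Same-numbered libraries of the 2 genotypes had correlations of deviations of 0.24, -0.03, -0.08 and 0.32. Mutant replicates 1 and 4 correlated best with their own number, and mutant replicates 2 and 3 did not. With 4 libraries per genotype that also split by library set, these values cannot decide whether the numbers pair the libraries. With the replicate block 0 members were called, and 19.8% of all genes had an unadjusted edgeR p under 0.05, against 13.7% on genotype alone. Standard errors were largest for Plxnb3, Sema3e and Sema3b (0.27, 0.23 and 0.15), members of low read counts.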
